A study of Homo sapiens with 2 samples.

Results

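The thioredoxin and glutathione systems, with the superoxide dismutases, catalase and the NRF transcription factors that control them, were represented by 38 genes listed by name. They were listed from knowledge of the pathways, with earlier results of these data known. A site was assigned to a gene when its deleted base lay inside the annotated gene (GENCODE release 44, hg38) on the same strand, and genes without a site were kept as genes without one. The 38 genes, of 20046 annotated protein-coding genes, held 153 of the 27706 sites in the list. The data came from CLIP-seq, in which a protein is crosslinked to RNA in living cells with ultraviolet light and recovered with the RNA bound to it. FLAG-tagged RBMS3, an RNA-binding protein, was expressed in MDA-MB-231 cells, an established triple-negative breast cancer line, and pulled down on anti-FLAG beads. There was 1 group of 2 biological replicates, and the source and cell line fields of replicate 2 read MDA-MB-232 while its title reads MDA-MB-231. The authors pooled both replicates before they called sites, so the values carry no replicate error, and with no control library analysed here no test between groups could be made. All values describe the tagged protein, not the RBMS3 that the cells make themselves.

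Thioredoxin and glutathione are the main thiol buffers of the cell. Thioredoxin reductase and glutathione reductase keep them reduced with NADPH, and peroxiredoxins, glutathione peroxidases, glutaredoxins and transferases spend that reducing power on peroxides, oxidised proteins and electrophiles. NRF2, the product of NFE2L2, switches on many of these genes and is held down by KEAP1, while TXNIP, an arrestin-family protein, binds thioredoxin itself.

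Each site has 3 values. The tags are the unique reads over the base, the deletions are the tags that skip the base, and the deletion percentage is the share of tags that do so. A skipped base is taken as the place where the reverse transcriptase met the remains of crosslinked protein, although deletions can have other origins. The reference around the strongest site, the one with the most deletions, is given for the 3 thioredoxin genes with a site and for the member with the most deletions at 1 site in 6 of the other role groups. Each line has 29 nt of hg38 on the transcript strand, with the deleted base in capitals. A base deleted from a run of the same letter cannot be placed within that run.
TXN: ccatctgcgtgacaAtaaaacattaatgc
TXNL1: aaagtcaccactttTgccaagcttaattt
TXNRD1: cattaaaattaaaaGgcattaataatatc
PRDX1: acccattaatctttTgtagtttgtattaa
GPX8: tatataaatagtcaTttataaatgaccgt
GCLM: gagtagctgggattTactagtagtgtaaa
MGST1: catgaaataaagaaTttaaagaatgattt
SQSTM1: gccatcctgttaaaTttgtaaacaatcta
GLRX: cacttaatttctttTctaataaaaaaaac

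The TXN line lies at chr9:110244031-110244059 on the minus strand, and its deleted A is in the poly(A) signal AATAAA, the hexamer that directs cleavage and polyadenylation. TXNRD1 is at chr12:104350258-104350286 on the plus strand, and its line holds the common variant signal ATTAAA. The MGST1 line at chr12:16364385-16364413 (plus strand) has AATAAA before the deleted T, and the GLRX line at chr5:95813988-95814016 (minus strand) has it after the deleted T. The other lines are chr18:56602819-56602847 (minus, TXNL1), chr1:45511064-45511092 (minus, PRDX1), chr5:55164859-55164887 (plus, GPX8), chr1:93888477-93888505 (minus, GCLM) and chr5:179837199-179837227 (plus, SQSTM1). All 9 are in annotated 3′UTRs.

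Most of the redox transcripts carried RBMS3 sites. At least 1 same-strand site lay in 29 of the 38 genes (76.3%, 95% Wilson interval 60.8 to 87.0), where the share over all protein-coding genes was 37.6%. At least 1 site in the 3′UTR was found in 28 of them (73.7%, interval 58.0 to 85.0), against 31.8% of all protein-coding genes (6372 genes). These counts include sites where every tag carried the deletion, the only kind in KEAP1 and SOD2. A 3′UTR site with deletions in under 30% of the tags lay in 27 of the 38, a share not computed over all genes. With at least 50 deletions per site, 23 members and 23.6% of all protein-coding genes had a 3′UTR site. The members were chosen with earlier results of these data known, so these shares describe the list and were not tested. RNA levels were not measured in these libraries, so whether the members would differ from other genes of equal abundance was not tested. The genes without any site were TXN2, TXNRD2, PRDX4, PRDX5, GSS, MGST2, SESN1, SESN2 and SESN3. A gene absent from the list had no site past the filters of the caller, which does not show that its RNA was unbound.

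Of the 153 sites, 139 were in 3′UTRs (90.8%, interval 85.2 to 94.5, against 84.8% of the 25045 sites in protein-coding genes), 10 in introns, 3 in coding exons and 1 in a noncoding exon. The 139 3′UTR sites fell into 44 clusters, a cluster being sites on the same strand no more than 50 nt from the next. Sites of a cluster lie under many of the same tags, so they are not independent counts, and the intervals given here cover counting error alone. The 28 genes had a median of 3.5 3′UTR sites (range 1 to 16), where the 6372 genes with such a site had a median of 2.00. Their median number of clusters was 1.5, against 1.00 over all genes. Deleted bases of these transcripts thus mostly stood close together.

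The sites separated sharply by depth. Part of this split is set by the list, which has at least 7 deletions at every site. A site with few tags therefore cannot have a low percentage. In 132 of the 139 3′UTR sites the deletion was in under 30% of the tags (95%, interval 90.0 to 97.5, against 87.1% of all 3′UTR sites in protein-coding genes), and each of these had at least 342 tags. The other 7 3′UTR sites had at most 65 tags. The 14 sites outside 3′UTRs had 10 to 50 tags, all at 30% or more, and at 8 of them every tag carried the deletion. No site of these genes had both a deep stack of tags and a high percentage. The high-percentage sites rest on few tags, and are named below as such.

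**Figure D1:**
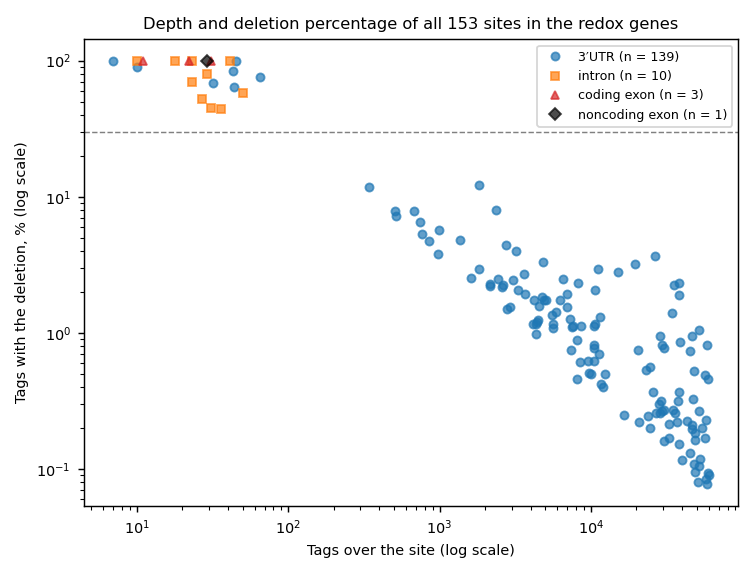
Tags over each site (x axis, log scale) against the percentage of those tags with the deletion (y axis, log scale) for the 153 sites in the 38 genes, marked by the part of the gene they lie in; the dashed line is at 30%. All 14 sites outside 3′UTRs and 7 of the 3′UTR sites lie above the line with 65 tags or fewer, and the other 132 lie below it with 342 tags or more.

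Among the thioredoxins and their reductases, TXN, TXNL1 and TXNRD1 had sites, and the mitochondrial pair TXN2 and TXNRD2 had none. TXN encodes cytosolic thioredoxin, the protein that TXNIP binds. It held 8 3′UTR sites, all within 100 nt of an annotated transcript end, plus 1 coding site. Its strongest site, at position 110244045 on chromosome 9, had 544 deletions in 51794 tags (1.05%, interval 0.966 to 1.14). It lay 26 nt before an annotated end and 235 nt before the end of the representative transcript, the single curated transcript of the gene.

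Another 6 TXN sites stood in the same cluster, at positions 110244027 to 110244045. The A at position 110244034 had 477 deletions in 58571 tags (0.814%, interval 0.745 to 0.890) and the U at 110244036 had 276 in 59695 (0.462%, interval 0.411 to 0.520). The remaining 4 were weak in percentage, with 97 deletions in 57120 tags (0.170%, interval 0.139 to 0.207) at 110244031, 54 in 59931 (0.0901%, interval 0.0691 to 0.118) at 110244039, 49 in 57492 (0.0852%, interval 0.0645 to 0.113) at 110244040 and 41 in 51027 (0.0803%, interval 0.0592 to 0.109) at 110244027. All 7 have AATAAA within 25 nt, and they lie 8 to 26 nt before the annotated end. The depth was thus nearly the same over the cluster while the deletions ranged widely.

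A separate TXN site lay 82 nt before that end, at position 110244101, in a run of 7 U. It had 121 deletions in 2757 tags (4.39%, interval 3.69 to 5.22), a far shallower stack with a higher percentage. Its window of 25 nt on each side holds no poly(A) signal but holds the AUA motif. This 7-letter motif, searched on the transcript strand, is A, G or U, then A or U, then A, U and A, then A or U, then A, and it can overlap AATAAA. The coding site of TXN, at position 110251427, had all of its 22 tags deleted (100%, interval 85.1 to 100).

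TXNRD1 encodes the selenoprotein that reduces cytosolic thioredoxin. Its 10 3′UTR sites formed a single cluster 1 to 59 nt before annotated ends, at positions 104350215 to 104350276 on chromosome 12. The strongest was a G with 440 deletions in 46668 tags (0.943%, interval 0.859 to 1.03), 2 nt before an annotated end and 7 nt after the start of ATTAAA. The others had at most 140 deletions, so 1 base stood well above the rest of the cluster.

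Going down the TXNRD1 cluster, position 104350255 had 140 deletions in 38240 tags (0.366%, interval 0.310 to 0.432) and position 104350215 had 109 in 6278 (1.74%, interval 1.44 to 2.09). Position 104350262 had 98 in 46810 (0.209%, interval 0.172 to 0.255), 104350276 had 97 in 43120 (0.225%, interval 0.184 to 0.274) and 104350253 had 92 in 35775 (0.257%, interval 0.210 to 0.315). Tags over the cluster were deepest close to the end and fell away upstream. Position 104350260 had 91 in 46187 (0.197%, interval 0.161 to 0.242), 104350249 had 85 in 28364 (0.30%, interval 0.242 to 0.370), 104350266 had 79 in 48587 (0.163%, interval 0.130 to 0.203) and 104350235 had 41 in 16473 (0.249%, interval 0.184 to 0.337). ATTAAA was in the window of 8 of the 10 sites, AATAAA in none. TXNRD1 also had an intron site at 104295174 with all 18 tags deleted (interval 82.4 to 100) and a coding site at 104326373 with all 11 tags deleted (interval 74.1 to 100).

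TXNL1, a thioredoxin-like protein associated with the proteasome, was far less covered. Its strongest site, a U at position 56602833 on chromosome 18, had 66 deletions in 1367 tags (4.83%, interval 3.81 to 6.10) and lay 9 nt before an annotated end. This end is internal to the long representative 3′UTR of 5821 nt, whose own end is 5624 nt away. The other TXNL1 site, at 56602637, had 28 deletions in 44 tags (63.6%, interval 48.9 to 76.2). The 3 thioredoxin genes with sites therefore had their strongest sites next to an annotated end. The representative end lay 235 and 5624 nt away in TXN and TXNL1, but only 35 nt away in TXNRD1.

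**Figure D2:**
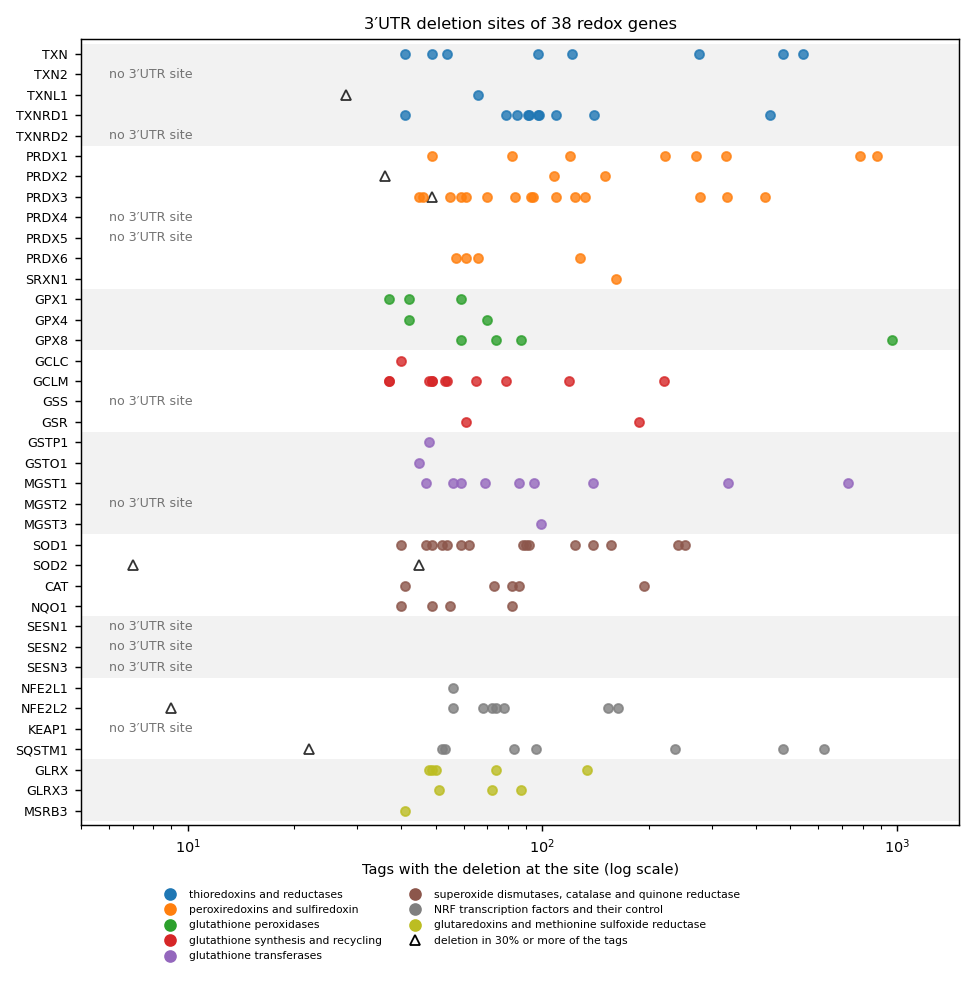
Tags with the deletion (x axis, log scale) at every 3′UTR site of the 38 genes (y axis), coloured by role, with open triangles for sites whose deletion is in 30% or more of the tags. GPX8 and PRDX1 reach the highest counts (967 and 878), 10 genes have no 3′UTR site, and SOD2 has triangles and no circle.

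The peroxiredoxins destroy peroxides with electrons from thioredoxin, and 4 of the 6, with sulfiredoxin (SRXN1, which repairs overoxidised peroxiredoxins), had 3′UTR sites. PRDX1, a cytosolic peroxiredoxin, held 8, of which the strongest at position 45511078 on chromosome 1 had 878 deletions in 38057 tags (2.31%, interval 2.16 to 2.46) 27 nt before the end. A second base 7 nt further on had 787 in 35275 (2.23%, interval 2.08 to 2.39), so this pair cannot be ranked beyond counting error in percentage. A lone PRDX1 site 206 nt before the end, in a run of 10 U, had 222 deletions in 1825 tags (12.2%, interval 10.7 to 13.7). It had the highest percentage of any redox 3′UTR site under 30%, in shallow coverage, and its interval overlapped that of the next, a SOD1 site with 11.7%.

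PRDX3, the mitochondrial peroxiredoxin, had the most 3′UTR sites of the 38 genes, 16, of which 15 formed a cluster 6 to 76 nt before the end. Its strongest in-gene site, position 119167768 on chromosome 10, had 425 deletions in 15065 tags (2.82%, interval 2.57 to 3.10) at 48 nt from the end. Tags rose from 5875 at the upstream edge of the cluster to 59016 near the end. The 16th site had 49 deletions in 65 tags (75.4%, interval 63.7 to 84.2). A further 2 sites lay on the same strand just past the annotated end of PRDX3, outside the gene by the rule and not counted. They had 613 deletions in 21249 tags (2.88%, interval 2.67 to 3.12) at 3 nt past the end and 431 in 17440 (2.47%, interval 2.25 to 2.71) at 10 nt past it. No other member had a site within 1000 nt past its end. Both of these had more deletions than any site inside PRDX3.

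PRDX6, a peroxiredoxin that uses glutathione, had sites at 2 places. The strongest site, at position 173488793 on chromosome 1, had 128 deletions in 3219 tags (3.98%, interval 3.35 to 4.71), 22 nt before the end and after AATAAA. A pair of sites 824 to 827 nt before that end, 24 to 27 nt before another annotated end and next to ATTAAA, had 66 in 5618 (1.17%, interval 0.925 to 1.49) and 61 in 5645 (1.08%, interval 0.842 to 1.39). The upstream place was thus deeper in tags and lower in percentage than the terminal one. An intron site of PRDX6 had 14 deletions in 27 tags.

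PRDX2, abundant in red cells and also cytosolic, had its strongest site at position 12796843 on chromosome 19, with 150 deletions in 11533 tags (1.30%, interval 1.11 to 1.52). SRXN1 had a single site, at position 646635 on chromosome 20, with 161 deletions in 4822 tags (3.34%, interval 2.87 to 3.88). The PRDX2 sites also lie inside HOOK2, and the SRXN1 site inside ENSG00000270299, each annotated on the same strand, and the tags cannot be divided between the overlapping genes. The remaining PRDX2 site had 36 deletions in 43 tags. PRDX4 of the endoplasmic reticulum and the mitochondrial and peroxisomal PRDX5 had no site.

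All 3 listed genes of the glutathione peroxidase family, which is named for reducing peroxides with glutathione, had sites. GPX8, an endoplasmic reticulum member, had the strongest site of all 38 genes, at position 55164873 on chromosome 5, with 967 deletions in 26330 tags (3.67%, interval 3.45 to 3.91). Ranked by strongest 3′UTR site it was 131 of the 6372 genes. It lay 2198 nt before the nearest annotated end downstream, in a window with the AUA motif and neither poly(A) signal. Its neighbour 16 nt on had 59 deletions in 23855 tags (0.247%, interval 0.192 to 0.319), and a site upstream, 5 nt before another annotated end, had 87 in 7672 (1.13%, interval 0.920 to 1.40). GPX8 thus differed from TXN, TXNRD1, PRDX1 and PRDX3 in where its deletions lay, far inside the 3′UTR.

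GPX4, which reduces lipid peroxides and restrains ferroptosis, had its strongest site 1 nt before an annotated end, at position 1106773 on chromosome 19, with 70 deletions in 3645 tags (1.92%, interval 1.52 to 2.42). GPX1, the cytosolic enzyme, had 59 deletions in 2616 tags (2.26%, interval 1.75 to 2.90) at position 49357199 on chromosome 3, within AATAAA. The GPX1 values have 2 limits. Its 3 sites lie also in ENSG00000290318 on the same strand, and the 29 nt around its strongest site occur at 2 places in the genome, where those of the other 27 strongest sites occur once.

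Glutathione is made by glutamate-cysteine ligase (GCLC, the catalytic subunit, and GCLM, the modifier) and glutathione synthetase (GSS), and glutathione reductase (GSR) recycles it. GCLM held 11 sites in 3 clusters, while GCLC held 1 and GSS none. The strongest GCLM site, position 93888491 on chromosome 1, had 220 deletions in 10693 tags (2.06%, interval 1.81 to 2.34), 1457 nt before the nearest annotated end. It headed 7 sites there with 8058 to 11954 tags, all with AATAAA in the window. The 3 sites 19 to 63 nt before the annotated end had 679 to 1816 tags and 2.97 to 7.81%, and a lone site at 182 nt had 37 in 980 (3.78%, interval 2.75 to 5.16). In GCLM the deepest tags thus lay at a poly(A) signal with no annotated end close by. The first 15 bases of its printed line occur 1107 times in the genome, where the median over the 28 strongest sites is 20 and only NFE2L2 has more, so the upstream flank is repeated sequence although the whole 29 nt occur once.

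GSR had 187 deletions in 2351 tags (7.95%, interval 6.93 to 9.12) at position 30678073 on chromosome 8, 7 nt before the end. The GCLC site, position 53497514 on chromosome 6, had 40 deletions in 508 tags (7.87%, interval 5.84 to 10.5) at 130 nt from the nearest end. These were the highest percentages among the strongest sites apart from SOD2, their intervals overlapped, and both came from shallow stacks beside those of TXN or PRDX1.

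Glutathione transferases conjugate glutathione to electrophiles, and MGST1 stood apart among them. This microsomal enzyme had 9 3′UTR sites 10 to 86 nt before annotated ends, the strongest at position 16364399 on chromosome 12 with 727 deletions in 38202 tags (1.90%, interval 1.77 to 2.04). The next had 333 in 45068 (0.739%, interval 0.664 to 0.822). MGST3 had 99 in 3629 (2.73%, interval 2.25 to 3.31) at position 165655568 on chromosome 1. GSTP1 had 48 in 2162 (2.22%, interval 1.68 to 2.93) at position 67586632 on chromosome 11, and GSTO1 had 45 in 2906 (1.55%, interval 1.16 to 2.07) at position 104267423 on chromosome 10. GSTP1 and GSTO1 have the shortest representative 3′UTRs of the 28 genes with a 3′UTR site, 79 and 53 nt, and in both the deleted A opens AATAAA. MGST2 had no site.

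SOD1, CAT and NQO1, the cytosolic superoxide dismutase, catalase and a quinone reductase, each had several deeply covered sites. The SOD1 sites were mainly not at its end. Of 15, a cluster of 13 lay 265 to 299 nt before the annotated end with 23068 to 52301 tags, the strongest with 252 deletions in 47825 tags (0.527%, interval 0.466 to 0.596). A site 30 nt before the end had 88 in 5017 (1.75%, interval 1.43 to 2.16), and 1 at 103 nt had 40 in 342 (11.7%, interval 8.71 to 15.5). Each of these 3 places has ATTAAA within 25 nt, and the farthest from the annotated end had the deepest tags.

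CAT had 193 deletions in 8250 tags (2.34%, interval 2.03 to 2.69) at position 34472029 on chromosome 11, 31 nt before the end. NQO1 had 82 in 7454 (1.10%, interval 0.887 to 1.36) at position 69709430 on chromosome 16, placed within AATAAA in a run of 3 A. SOD2, the mitochondrial superoxide dismutase with the longest representative 3′UTR of the set (13427 nt), had only sites where every tag carried the deletion. They had 45 of 45 tags at position 159680299 on chromosome 6 (interval 92.1 to 100), 7 of 7 at a second 3′UTR position and 41 of 41 in an intron. SOD2 was the only gene with 3′UTR sites that had none under 30%.

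Among the regulators, NFE2L2 and SQSTM1 carried clusters of sites, NFE2L1 a single site and KEAP1 no 3′UTR site. SQSTM1, the autophagy receptor p62 that sequesters KEAP1, had 624 deletions in 19445 tags (3.21%, interval 2.97 to 3.47) at position 179837213 on chromosome 5. It lay 5 nt before an annotated end and 865 nt before the representative one. The next SQSTM1 site had 478 in 34242 (1.40%, interval 1.28 to 1.53). NFE2L2 had 163 in 6509 (2.50%, interval 2.15 to 2.91) at position 177230351 on chromosome 2, in a run of 12 A and 16 nt before an annotated end, and 153 in 20530 (0.745%, interval 0.636 to 0.872) 13 nt further on. The 15 bases that end at the former, with part of the run of A, occur 5775 times in the genome, the most of the 28 strongest sites. NFE2L1, which encodes the related factor NRF1, had 56 in 4469 (1.25%, interval 0.966 to 1.62) at position 48060925 on chromosome 17, at 554 nt from the nearest end. KEAP1 had only a coding site at position 10499553 on chromosome 19, where all 31 tags carried the deletion (interval 89.0 to 100). Of these 4 genes only KEAP1 lacked a deeply covered site, and its RNA level was not measured. NFE2L2 also had 3 intron sites of 10 to 29 tags, which lie inside ENSG00000213963 on the same strand, and a 3′UTR site outside the representative 3′UTR with 9 deletions in 10 tags.

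The last enzymes reverse thiol and methionine oxidation. GLRX, a glutaredoxin, had 134 deletions in 6919 tags (1.94%, interval 1.64 to 2.29) at position 95814002 on chromosome 5, the strongest of 5 sites in a single cluster. GLRX3 had 87 in 4744 (1.83%, interval 1.49 to 2.26) at position 130179577 on chromosome 10. MSRB3, a methionine sulfoxide reductase, had 41 in 1606 (2.55%, interval 1.89 to 3.44) at position 65466866 on chromosome 12 and an intron site with 29 deletions in 50 tags. The sestrins SESN1, SESN2 and SESN3, stress-induced regulators of mTORC1 signalling and peroxide metabolism, had no site at all.

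**Figure D3:**
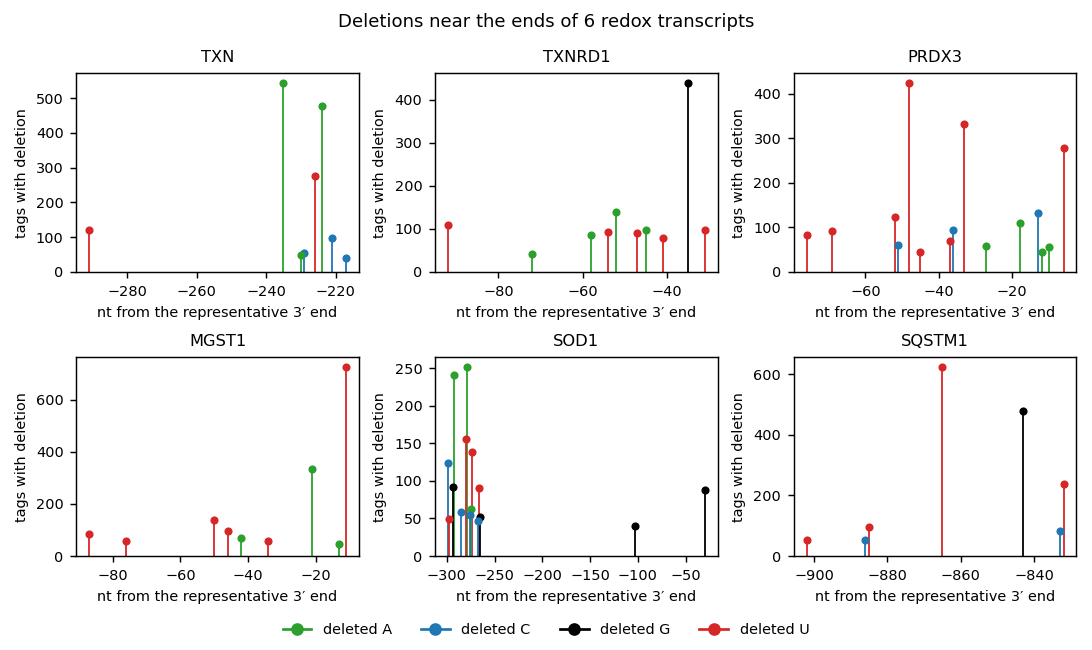
Tags with the deletion (y axis) by distance in nt from the end of the representative transcript (x axis, 0 is the end) at the 3′UTR sites under 30% of 6 genes, coloured by the deleted base; axes differ between panels. PRDX3 and MGST1 sites lie within 100 nt of that end, TXNRD1 sites 31 to 92 nt from it, and the main TXN, SOD1 and SQSTM1 clusters 217 to 235, 265 to 299 and 832 to 902 nt from it.

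The position of sites relative to transcript ends was close to that over all genes. Within 100 nt of an annotated end downstream lay 105 of the 139 3′UTR sites (75.5%, interval 67.8 to 81.9), against 69.3% of 21230 sites in 3′UTRs of all protein-coding genes. The median distance was 33.0 nt, against 34.0 nt over all. GCLC and NFE2L1 were the only genes with 3′UTR sites that had none within 100 nt of an end. SOD2 had 1 there only by its site with 7 of 7 tags, 39 nt before an annotated end. For the 28 strongest sites, 22 lay within 100 nt of any annotated end (78.6%, interval 60.5 to 89.8) and 17 within 100 nt of the representative one (60.7%, interval 42.4 to 76.4). Over all genes these shares were 74.9% and 55.6%. All 3 intervals held the share over all genes. The library method tails RNA with poly(A) and captures it by oligo(dT), and the part of natural poly(A) ends in this was not tested.

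Poly(A) signals were counted on the transcript strand within 25 nt on each side of the deletion, a window of 51 nt. AATAAA was in the window of 64 of the 139 sites (46.0%, interval 38 to 54.3), against 52.6% over all 3′UTR sites. ATTAAA without AATAAA was in 34 (24.5%, interval 18.1 to 32.2), against 12.8%, and neither was in 41 (29.5%, interval 22.5 to 37.5), against 34.6%. The ATTAAA windows were mainly those of SOD1, TXNRD1, PRDX1 and SQSTM1, each with many sites over the same signal. With 1 site per gene the strongest sites had AATAAA in 19 of 28 (67.9%, interval 49.3 to 82.1), against 59.7%, and ATTAAA alone in 4 (14.3%, interval 5.70 to 31.5), against 14.5%. PRDX3, GPX8, GCLC, SOD2 and NFE2L1 had neither at their strongest site. Counted by gene, the share with ATTAAA alone was thus close to that over all genes.

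In 6 of the 28 genes the strongest deletion was one of the first 2 A of AATAAA (21.4%, interval 10.2 to 39.5), against 6.10% over the 6372 genes. These were TXN, PRDX2, GPX1, GSTP1, GSTO1 and NQO1. The NQO1 base is in a run of 3 A, so it may lie outside AATAAA. Runs of 3 or more A were counted by where the base was placed, so both shares are approximate. Over all sites, not the strongest alone, the share was 8.63% of the members' sites (12 of 139, interval 5.01 to 14.5) and 6.38% over all genes. No test was made of either difference, since the list was chosen with earlier results of these data known.

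**Figure D4:**
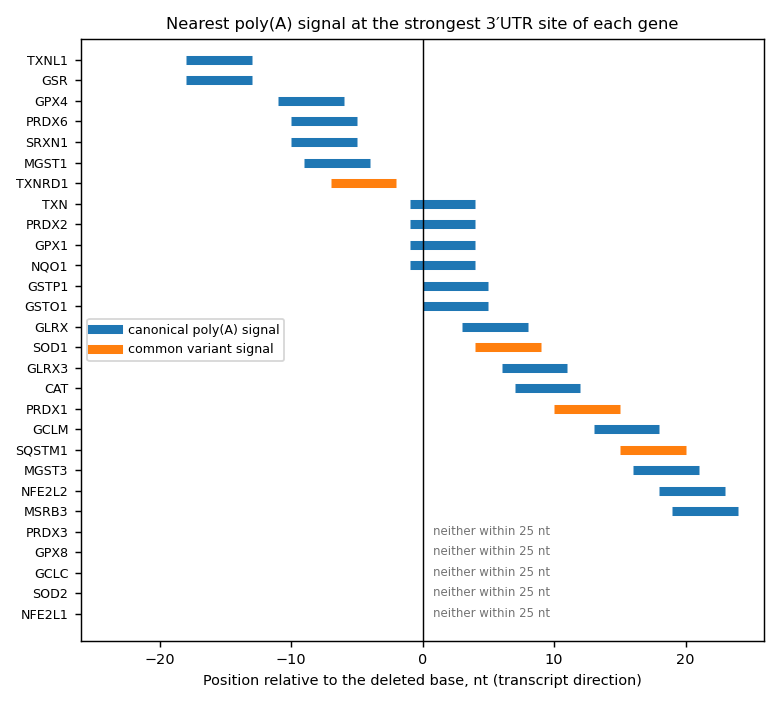
Position of the nearest poly(A) signal (bars, from its first to its last base) relative to the deleted base at 0 (x axis, nt along the transcript) for the strongest 3′UTR site of each of the 28 genes (y axis), with the canonical signal in blue and the common variant in orange. The signal covers the deleted base, as placed, in 6 genes, lies before it in 7 and after it in 10, and 5 genes have neither within 25 nt.

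A match to the AUA motif lay in 52 of the 139 windows (37.4%, interval 29.8 to 45.7), against 51.7% over all 3′UTR sites. Matches that did not contain AATAAA were in 8 windows (5.76%, interval 2.94 to 10.9), against 15.5%. These 8 were the separate TXN site, 3 of the 4 GPX8 sites and 1 site each in GCLM, GSR, MGST3 and NFE2L2. At the strongest sites 13 of 28 had the motif (46.4%, interval 29.5 to 64.2), against 55.9%. At the strongest sites the interval held the share over all genes. With 1 site per cluster the members' share was 41.9%, and the share over all genes was not computed that way. Matches without AATAAA were not recounted by gene or by cluster. Sites of a cluster are not independent, so no difference in the motif is drawn from the counts by site. The share of A and U in the window had the same median, 72.5%, in both.

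The deleted base was U (T in the reference) at 71 of the 139 sites (51.1%, interval 42.9 to 59.2), against 65.5% over all. C was deleted at 20 (14.4%, interval 9.51 to 21.2), against 7.12%, A at 37 (26.6%, interval 20 to 34.5), against 21.5%, and G at 11 (7.91%, interval 4.48 to 13.6), against 5.91%. The base moved with the percentage. Among the 69 redox sites with at most 1% deletions, 24 were U and 16 were C, while among the 63 between 1 and 30%, 44 were U and 3 were C. Over all genes U was 43.3% of the sites in the low class and 77.5% in the middle class. C was 23.2% of the redox sites in the low class (interval 14.8 to 34.4), against 11.5% over all genes. In the middle class C was 4.76% (interval 1.63 to 13.1), against 4.11%. The higher share of C was thus also seen within the low class. The redox sites fell more into the low class, with 49.6% (interval 41.5 to 57.8) at or below 1%, against 31.0%. The part of depth in the base composition was not tested beyond these classes.

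The 139 redox 3′UTR sites had a median of 10693 tags, against 4926 over all 3′UTR sites, and a median of 74.0 deletions, against 64.0. Genes with many sites weigh most in these medians. Taking only the strongest site of each gene, the median was 5666 tags for the 28 genes, against 2872 over all genes. The median deletion percentage over all redox sites was 1.05%, against 1.96%, and at the strongest sites it was 2.28%, against 3.64%. With 1 site per cluster the redox median was 2.73%, so its level depends on how the sites of a cluster are counted. By strongest site, the genes behind GPX8 were PRDX1 at rank 160 of 6372, MGST1 at 224, SQSTM1 at 283, TXN at 372, TXNRD1 at 512 and PRDX3 at 528. The lowest were GCLC at 5395 and MSRB3 at 5270. The ranks follow deletion counts, which also depend on how many tags lie over a site, and do not order the genes by how much of their RNA was bound.

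**Figure D5:**
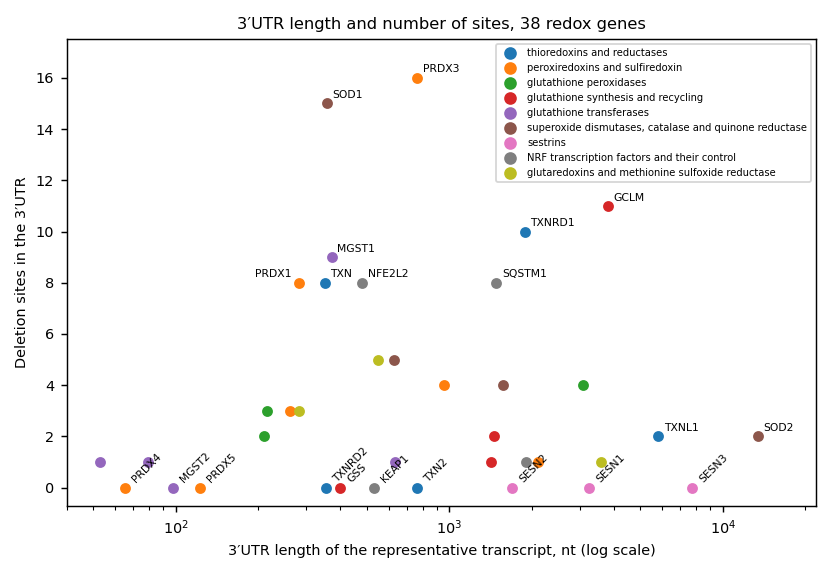
Length of the 3′UTR of the representative transcript (x axis, nt, log scale) against the number of 3′UTR sites (y axis) for the 38 genes, coloured by role. The 10 genes without a 3′UTR site range from PRDX4 (65 nt) to SESN3 (7745 nt), and PRDX3 and SOD1 hold 16 and 15 sites in 763 and 356 nt.

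The genes with and without 3′UTR sites overlapped in 3′UTR length. The 28 with a site had a median representative 3′UTR of 699 nt (53 to 13427) and the 10 without had a median of 464 nt (65 to 7745), both below the 1029 nt over all protein-coding genes. Short 3′UTRs were found on both sides, with sites listed in GSTO1 and GSTP1 and none in PRDX4, MGST2 and PRDX5. Long ones were as well, since SESN3 and SESN1 had no site and GCLM and GPX8 had several. As a check of the labelled line, sites lay in 5 of 5 mesenchymal-like markers (VIM, CD44, AXL, CAV1 and CAV2), which shows that these RNAs were present, and in 1 of 5 luminal ones, GATA3, with 47 deletions in 744 tags. ESR1, PGR, FOXA1 and CDH1 had no site, which does not show that these RNAs were absent. Over all protein-coding genes 37.6% had a site, and 5 genes of each kind are too few for a firm check.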

How the data were processed

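CLIP-seq of FLAG-tagged RBMS3 was analysed from a single list of sites. Per the methods of the study, cells were irradiated at short ultraviolet wavelength, RNA was recovered with the tagged protein, tailed with poly(A), captured with oligo(dT) and reverse transcribed with primers carrying molecular identifiers. The authors aligned reads to hg38 with the CLIP Tool Kit, kept unique tags, pooled both replicates and called deletion sites that passed a false discovery rate filter and a fold filter, whose definition is not given in the sources used here. Versions are not given in the sources used here. The deposited values are counts of tags with the deletion and a site name that holds this count and the number of tags over the site. The list spans 7 to 7182 deletions and 7 to 125056 tags per site. Per-library depths were not analysed here.

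Sites were placed in GENCODE release 44 genes by the deleted base, the middle of each 21-nt interval, with 3′UTR ranked before coding exon, noncoding exon and intron over all transcripts of a gene. Counts of genes with a site and the main shares of sites are given beside the same over all protein-coding genes, and shares have 95% Wilson intervals. Each gene is named, every site of the thioredoxin genes and the strongest site of the others are given, and sequences follow the same rule, with none from chromosome 8 and 1 further sequence not reported here. The members and lists were chosen with earlier results of these data known, so no test was made. Placement was tested on simulated data, where 400 of 400 genes and 95 of 95 distances were right. Python 3.11.15, numpy 2.4.6, scipy 1.17.1, pysam 0.24.0 and matplotlib 3.10.9 were used. Alternatives were other minimum deletions and percentages, 1 site per cluster, 1 transcript per gene, no strand, other windows, motifs and end distances.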

Additional observations from a re-analysis of the deposited data

How the results depend on the processing

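No paired analysis was possible because the list pools both replicates of a single group. Of 67 values under alternatives, 39 stayed within their counting interval or 1.5 times the value reported, and the following 28 did not. With at least 20 deletions, 29.2% of all protein-coding genes had a 3′UTR site and 95.1% of the members' sites were in 3′UTRs, and with at least 50 deletions these were 23.6% and 100%. With deletions in at least 10% of the tags, 14 members had a site and 8 a 3′UTR site, 13.6% of all protein-coding genes had a 3′UTR site, and 23 member sites were left. Of those 23, 39.1% were in 3′UTRs, and of the 3′UTR ones 11.1% lay within 100 nt of an end, with a median of 75.4% deletions and with AATAAA and the AUA motif in 0%. With 1 site per cluster there were 57 sites, 75.4% in 3′UTRs, of which 67.4% lay within 100 nt of an end with a median of 2.73%. With 1 representative transcript per gene, 30.8% of all genes had a 3′UTR site and 55.9% of the members' sites were within 100 nt of an end. Without regard to strand, 32.9% of all genes had a 3′UTR site and 82.1% of the members' sites were in 3′UTRs. In windows of 10 nt on each side the shares with AATAAA and AUA were 24.5% and 16.5%, and with 50 nt they were 56.8% and 55.4%. AATAAA or ATTAAA was in 70.5%, AUA matches without AATAAA in 5.76%, and 63.3% lay within 50 nt of an end. The smaller counts follow from the stricter definitions. The statements on poly(A) signals, the AUA motif and transcript ends hold for the low-percentage, deep sites, since a filter on the percentage leaves mainly the shallow ones. Depth limits what a missing site shows.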

Other observations

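Another 55 redox genes outside the 38 gave a further view of the same systems. They too were listed by knowledge of the pathways with earlier results of these data known. A site lay in 34 of them and a 3′UTR site in 32, where 37.6% and 31.8% of all protein-coding genes had one, with 105 of their 122 sites in 3′UTRs. TXNIP, the thioredoxin-binding arrestin, had 3 sites in 1 cluster, the strongest with 776 deletions in 10388 tags (7.47%) 14 nt before an annotated end, at rank 200 of 6372 genes. TXNDC12, a thioredoxin-fold protein of the endoplasmic reticulum, had 1446 deletions in 28478 tags (5.08%) at rank 52. SLC7A11, the cystine importer that feeds glutathione synthesis, had 17 3′UTR sites with 1214 deletions in 35650 tags (3.41%) at the strongest. ERO1A, an oxidase of the endoplasmic reticulum, had 22 sites. HMOX1, a classic NRF2 target, had 1 site with 43 deletions in 722 tags (5.96%). Of the listed cytosolic GSTM transferases, GSTM3 had 1 site with 46 deletions in 2769 tags (1.66%), and GSTM1, GSTM2 and GSTM4 had none.

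Sites were also counted in annotated pseudogenes and on the opposite strand. Such counts cannot show whether tags were lost or misplaced between a gene and its copies. Of 32 annotated pseudogenes of the 38 genes, 1 had a site (TXNP6, with 13 deletions in 19 tags). On the opposite strand, 20 sites fell inside 5 of the 38 genes, and 19 of these were in an annotated gene of that strand.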
